A study of Macaca mulatta with 12 samples.

Results

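Engineered heart tissue (EHT), a strip of tissue cast in a gel from cells that the labels call cardiomyocytes made from rhesus macaque (Macaca mulatta) induced pluripotent stem cells, was sequenced after hypoxia and in normoxia. The comparison took the 3 hypoxia and the 3 normoxia EHT libraries, 6 of the 12 libraries of the series, and covered every gene that could be tested, 12084 of the 16745 listed. Both groups were grown in RPMI medium with B27 supplement including insulin. The hypoxia group went into anaerobic pouches for 24 hours, followed by 24 hours after new medium was given, and the labels do not say at which point RNA was taken. No medium change is recorded for normoxia, so low oxygen and the medium change cannot be told apart. The other 6 libraries, monolayers of the same cell type in the same 2 oxygen conditions, entered the fit and a test of whether the response differed between tissue and monolayer. Nothing in the labels says whether replicates were separate castings or differentiations, and p-values then measure only the spread between these samples, which may be technical.

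Cells read oxygen through the prolyl hydroxylases of the EGLN (PHD) family, which use oxygen to mark the alpha subunits of the hypoxia-inducible factors (HIF) for destruction by the VHL ubiquitin ligase. When oxygen falls, the alpha subunits persist, pair with ARNT and switch on genes for glucose uptake, glycolysis, acid export, blood vessel growth and removal of mitochondria. Heart muscle normally burns fatty acids in its mitochondria, which makes it sensitive to oxygen supply.

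The cardiomyocyte identity in the labels was weakly represented. The 12 cardiomyocyte markers together held 0.0164, 0.00828 and 0.00154% of the reads of normoxia libraries 1, 2 and 3, and 0.0584, 0.0746 and 0.00222% of those of hypoxia libraries 1, 2 and 3. MYH6, the atrial and embryonic myosin heavy chain, had 165, 126 and 1 reads in normoxia and 739, 811 and 0 reads in hypoxia. The fibroblast markers held 6.05, 6.38 and 5.25% of reads in normoxia and 6.85, 6.33 and 5.16% in hypoxia. In every library COL1A1 and COL3A1 had the most reads of these markers, and their levels (CPM, defined below) moved differently. COL1A1 stood at 35883.4, 36413.2 and 27279.5 CPM in normoxia and 22246.5, 24664.5 and 28702.9 CPM in hypoxia. COL3A1 stood at 18953.6, 22074.1 and 18366.1 CPM in normoxia and 37652.4, 32060.3 and 17863.4 CPM in hypoxia. The similar shares thus do not show a steady fibroblast content. Macrophage and leukocyte markers held 0.0244, 0.0173 and 0.000984% of reads in normoxia and 0.00637, 0.0178 and 0.00134% in hypoxia. CSF1R, the receptor that defines macrophages, had 231, 303 and 0 reads in normoxia and 92, 245 and 0 in hypoxia. Both libraries numbered 3 thus held almost no reads of either cell type, whatever their oxygen condition. In bulk RNA, fewer cells of a type and less RNA per cell cannot be told apart.

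**Figure D1:**
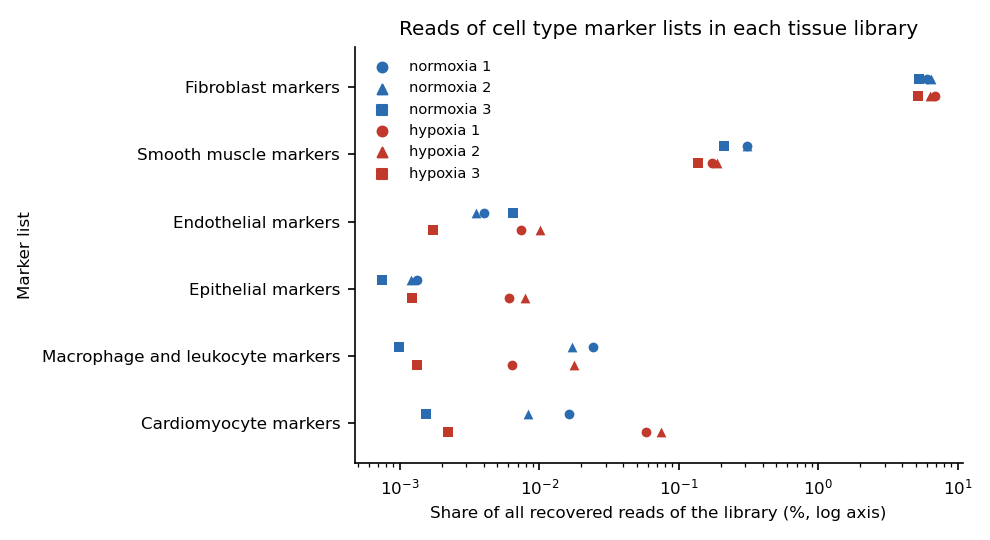
Share of all recovered reads of each EHT library (percent, log axis) held by 6 lists of cell type markers. Blue symbols are the 3 normoxia libraries, red symbols the 3 hypoxia libraries, and the symbol shape gives the replicate number. Squares, the libraries numbered 3, lie lowest in their group for every list except the endothelial markers, for which normoxia 3 lies highest. Fibroblast markers lie between 5.16% and 6.85% in all 6, a sum that hides differences between COL1A1 and COL3A1.

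Hypoxia replicate 3 stood apart beyond these markers. On the first principal component of the 6 EHT libraries, which held 53.5% of the variance, normoxia lay at -47.7 to -39.8, hypoxia 1 and 2 at 57.8 and 61.8, and hypoxia 3 at 14.3. The second component, with 28.0%, set hypoxia 3 (72.6) apart from the rest (-23.0 to 8.48). In hypoxia 3, 651 genes lay at least 2 log2 units from the mean of the other hypoxia libraries, against 21 to 151 genes for each of the other 5. Recovered depth was 4154346 to 8670347 reads per library, with 11784 to 12992 genes detected. Counts of called genes without hypoxia 3 are therefore given for all genes and for the lists in which they differed, and for some also without both libraries numbered 3.

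Values were centred on the median of each library and compared with limma, and a gene is said to be called, or to have risen or fallen, where its Benjamini-Hochberg adjusted p over all 12084 genes was under 0.05. Differences are hypoxia minus normoxia in log2 units with their standard error. Levels are recovered reads per 1000000 reads of the library (CPM), given for libraries 1, 2 and 3 in that order. Differences of genes with few reads understate the fold, since the deposited scale flattens low values.

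After hypoxia 2360 genes had risen and 1932 had fallen, 19.5% and 16.0% of those tested and 35.5% in all. Of these, 1081 rose and 880 fell by at least 1 log2 unit, and 241 rose and 71 fell by at least 2. The largest rises thus outnumbered the largest falls. The 3 hypoxia values did not overlap the 3 normoxia values for 4044 of the 4292 called genes. Among all genes tested, 23.6% lay wholly higher and 19.9% wholly lower in hypoxia. The median difference over all genes tested was 0.03.

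The deposited values differ between libraries in overall level, and without centring the median difference over all genes tested was 0.18, a shift of 0.15. On those values 858 genes were called higher and 270 lower (7.1% and 2.23%), so that 76.1% of calls were rises, against 55.0% after centring. No difference under 1.32 was called without centring, because all genes then shared standard errors of 0.46 to 0.60. Without hypoxia 3 the centred calls were 2988 higher and 2329 lower (24.7% and 19.3%), and 3948 genes were called in the same direction with and without it. Without both libraries numbered 3 they were 2925 and 2298 (24.2% and 19.0%). The call held in the same direction whichever single EHT library was left out for 2745 genes, 1587 higher and 1158 lower.

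**Figure D2:**
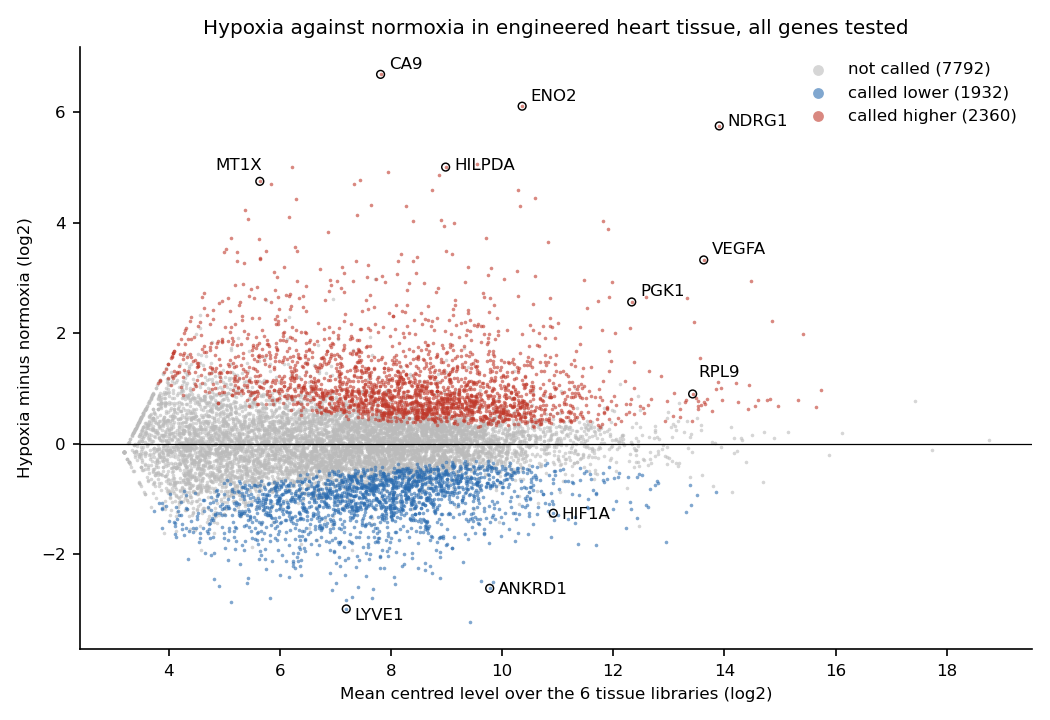
Each point is 1 of the 12084 genes tested in EHT, with its mean centred level over the 6 libraries (log2, horizontal) and its hypoxia minus normoxia difference (log2, vertical). Red points rose (2360), blue points fell (1932) and grey points were not called. Circled genes are named in the text, and the largest differences lie on the side of rises. Among genes that met the conditions for naming, CA9 had the largest, at 6.68.

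The oxygen sensors EGLN3 and EGLN1 rose. Of the 11 tested genes for HIF subunits and oxygen sensors, 4 were called higher and 1 lower, and the median difference was 0.24. EGLN3 (PHD3), a prolyl hydroxylase that HIF itself induces, stood at 36.1, 19.6 and 4.79 CPM in normoxia and 559, 630.0 and 391 CPM in hypoxia. Its lowest hypoxia library was 10.8 times its highest normoxia library, and the gene rose by 5.06 ± 0.45 (adjusted p = 6.6e-06). EGLN1 (PHD2), the main sensor in most tissues, went from 45.7, 37.9 and 44.9 CPM to 298, 227 and 226 CPM, with no overlap and a narrow spread (rise of 2.73 ± 0.17, adjusted p = 3.1e-07). ARNT, the shared beta subunit, rose by 1.15 ± 0.14 (adjusted p = 7.1e-05).

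HIF1A, the alpha subunit best known from acute hypoxia, moved the other way. It stood at 488, 456 and 365 CPM in normoxia and 147, 120.0 and 185 CPM in hypoxia, so every hypoxia library was below every normoxia library. Its transcript fell by 1.26 ± 0.20 (adjusted p = 0.00051), a call that did not hold without centring (-1.11, adjusted p = 0.13), nor did that of ARNT (1.30, adjusted p = 0.062). EPAS1, which encodes HIF-2 alpha, overlapped between groups, at 262, 216 and 98.7 CPM against 79.2, 117 and 64.7 CPM, and was not called (difference -0.79 ± 0.35, 95% interval -1.56 to -0.03). Without both libraries numbered 3 its difference was -1.11 and called (adjusted p = 0.0040). HIF3A, a HIF-responsive family member with an inhibitory role, rose by 2.65 ± 0.66 (adjusted p = 0.0076), from 1.68, 0.231 and 3.11 CPM to 31.4, 44.1 and 2.94 CPM. Hypoxia 3 lay at the level of normoxia 3, and the difference without hypoxia 3 was 3.68. VHL was not called, at 0.24 ± 0.29 (95% interval -0.39 to 0.87).

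CA9, a membrane carbonic anhydrase used as a marker of hypoxic tissue, showed the largest rise of all genes that met the conditions for naming. It was close to undetected in normoxia, at 1.68, 0.807 and 0.647 CPM (7, 7 and 5 reads), and reached 366, 365 and 151 CPM in hypoxia. The rise was 6.68 ± 0.47 (adjusted p = 9.8e-07), or 281-fold between mean CPM, and hypoxia 3 had the lowest hypoxia level. CA12, a related enzyme, rose by 4.59 ± 0.28 (adjusted p = 3.1e-07). The lactate and proton carriers SLC16A3 (MCT4) and SLC16A1 (MCT1) rose by 2.14 ± 0.23 and 1.45 ± 0.23. SLC16A3 stood at 363, 361 and 362 CPM in the hypoxia libraries, a nearly equal level in all 3, against 81.6, 85.8 and 131 CPM in normoxia. In all, 4 of the 6 genes for carbonic anhydrases and acid export rose and none fell, with a median of 1.79, and the counts were the same without centring. Without hypoxia 3 they were 5 higher and 1 lower. The 1 lower was BSG (basigin), which escorts these lactate carriers to the membrane, at 512, 513 and 532 CPM in normoxia and 231, 295 and 419 CPM in hypoxia. Its CPM did not overlap, with hypoxia 3 nearest to normoxia. On centred values the groups overlapped, with hypoxia 3 (11.86) above normoxia 2 (11.84) and normoxia 3 (11.73). BSG was not called with all libraries (-0.49 ± 0.20, adjusted p = 0.080). Without hypoxia 3 its difference was -0.76 (adjusted p = 0.0016), and voom called it lower as well.

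Most of the tested genes of glucose use rose. Of 17 tested genes for glucose uptake, glycolysis and glycogen, 16 were called higher and none lower, at a median of 2.60, against 19.5% of all genes tested. In the 3 hypoxia libraries the median deviation from normoxia was 2.62, 2.60 and 2.56, so hypoxia 3 lay close to the others here. SLC2A3, TPI1, PGAM1, ENO1 and PKM, also in the list, were not analysed here. The genes together took 0.288, 0.275 and 0.259% of reads in normoxia and 1.58, 1.62 and 1.25% in hypoxia. SLC2A1 (GLUT1), the basal glucose transporter, rose from 143, 124 and 162 CPM to 1816, 1942 and 1570.2 CPM. The rise was 3.88 ± 0.18 (adjusted p = 4.8e-08), of similar size in all hypoxia libraries. HK2, the inducible hexokinase, rose from 44.3, 41.5 and 31.9 CPM to 648, 711 and 669 CPM (4.30 ± 0.18, adjusted p = 3.9e-08).

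Enzymes further down the pathway also rose. ENO2, the neuronal enolase, stood at 14.4, 14.0 and 40.3 CPM in normoxia, highest in library 3, and at 1422, 1589.9 and 994 CPM in hypoxia, lowest in library 3. Its rise of 6.11 ± 0.42 (adjusted p = 8.5e-07) was second to that of CA9 among the named genes. ALDOC rose by 4.59 ± 0.33, whereas ALDOA, the muscle aldolase, rose by 2.20 ± 0.26. PGK1, which makes ATP in glycolysis, went from 343, 324 and 256 CPM to 1646, 1465 and 1413 CPM without overlap (2.56 ± 0.20, adjusted p = 2.8e-06). The phosphofructokinase regulators PFKFB4 and PFKFB3 rose by 4.85 ± 0.30 and 2.64 ± 0.20. PDK1, the kinase that keeps pyruvate out of mitochondria, rose by 2.60 ± 0.34, at 43.9, 40.7 and 17.0 CPM in hypoxia against 4.81, 6.69 and 1.81 CPM. GYS1 and GBE1, which build and branch glycogen, rose by 2.50 ± 0.21 and 2.64 ± 0.19. The exception was PFKM, the muscle phosphofructokinase, at 65.7, 61.6 and 68.9 CPM in normoxia and 84.2, 72.0 and 41.9 CPM in hypoxia. Its groups overlapped because hypoxia 3 lay below all other libraries, and it was not called (0.21 ± 0.20, 95% interval -0.22 to 0.64). Without hypoxia 3 it was called, at 0.47 (adjusted p = 0.025).

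Signals to blood vessels moved both ways. Of 13 tested angiogenic and vasoactive genes, 7 rose and 3 fell, with a median of 1.49, and 7 and 1 were called without centring. VEGFA, the chief growth factor for blood vessels, stood at 488, 509 and 779 CPM in normoxia and 4979.6, 5627 and 3978 CPM in hypoxia. The lowest hypoxia library was 5.11 times the highest normoxia library, and the rise was 3.32 ± 0.23 (adjusted p = 7.6e-07). PGF, a second ligand of the VEGF family, rose from 2.41, 1.96 and 4.14 CPM to 32.8, 61.6 and 23.1 CPM (3.16 ± 0.46, adjusted p = 0.00022). ADM, the vasodilator adrenomedullin, was even across replicates in both groups, at 12.8, 13.3 and 12.8 CPM and 146, 134 and 103 CPM, and rose by 3.31 ± 0.32 (adjusted p = 1.2e-05). The secreted glycoproteins STC1 and STC2 rose by 4.03 ± 0.32 and 2.14 ± 0.31.

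ANGPTL4, an inhibitor of lipoprotein lipase, rose by 1.59 ± 0.38 (adjusted p = 0.0062). Its CPM levels overlapped, at 17.6, 30.1 and 80.8 in normoxia and 95.5, 107 and 77.0 in hypoxia, with normoxia 3 above hypoxia 3. ANGPT1, the ligand that steadies mature vessels, was among those that fell. It stood at 48.9, 53.9 and 55.9 CPM in normoxia and 11.7, 14.3 and 14.0 CPM in hypoxia, tight in both, for a fall by 1.58 ± 0.22 (adjusted p = 0.00017). The others that fell were less firm. For 1 the call was lost when either of 2 EHT libraries was left out, and for 1 when any of 4 was. The latter overlapped between groups and was not called by voom (adjusted p = 0.16).

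All 7 tested genes for mitophagy and remodelling of mitochondria rose, at a median of 3.06, and 6 were called without centring. BNIP3 and BNIP3L, receptors that tag mitochondria for removal, rose by 4.02 ± 0.30 and 2.11 ± 0.20. BNIP3 stood at 137, 130.4 and 115 CPM in normoxia and 2178, 1702 and 1446 CPM in hypoxia, the lowest hypoxia library 10.5 times the highest normoxia library. NDUFA4L2, which lowers complex I activity in hypoxia, went from 7.22, 7.15 and 0.647 CPM to 246, 269 and 62.0 CPM. Both libraries numbered 3 held the lowest level of their group, and the rise was 4.91 ± 0.61 (adjusted p = 7.2e-05). COX4I2, the hypoxic isoform of a cytochrome oxidase subunit, had no read in any normoxia library. In hypoxia it stood at 7.28, 8.28 and 0.453 CPM, at least 40.2-fold higher over the group than the floor of 3 reads, though hypoxia 3 held almost none. Its call (adjusted p = 0.011) was lost when hypoxia 2 was left out (adjusted p = 0.052).

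Of 20 other genes known to be induced by hypoxia, 19 rose and none fell, with a median of 2.81, and 18 rose without centring. NDRG1, a stress-responsive gene that HIF induces strongly, went from 318, 238 and 362 CPM to 12662, 14403 and 13619 CPM, close together in the 3 hypoxia libraries (5.75 ± 0.32, adjusted p = 1.6e-07). HILPDA, which coats lipid droplets, rose by 5.0 ± 0.24 and ERO1A, an oxidase for disulphide bonds in the endoplasmic reticulum, by 4.45 ± 0.19. DDIT4, an inhibitor of mTOR signalling, stood at 57.3, 96.8 and 66.9 CPM and 934, 999.7 and 501 CPM and rose by 3.65 ± 0.28, with hypoxia 3 lowest. IGFBP3, a binding protein for insulin-like growth factors, rose by 2.94 ± 0.40, and here hypoxia 3 was highest, at 5709, 6858 and 11051 CPM against 1700.4, 1506 and 656 CPM.

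ZNF395, RORA and INSIG2 rose by 4.0 ± 0.24, 2.68 ± 0.18 and 3.43 ± 0.22. C10orf10, RASSF4 and PPFIA4 rose by 2.98 ± 0.31, 3.38 ± 0.35 and 3.01 ± 0.26. All 6 had no overlap between groups, as had 4044 of the 4292 called genes.

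**Figure D3:**
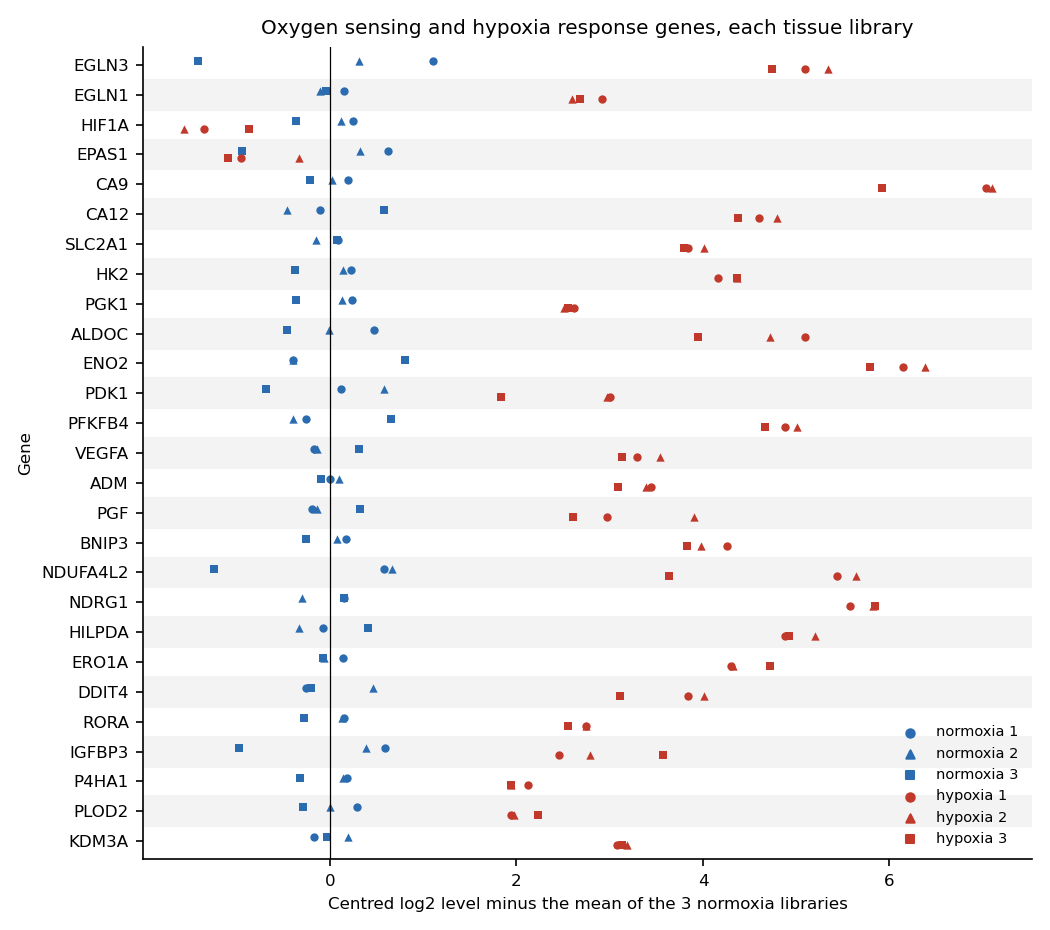
Centred log2 level of 27 oxygen sensing and hypoxia response genes in each EHT library, minus the mean of the 3 normoxia libraries (horizontal axis, log2). Blue symbols are normoxia, red symbols hypoxia, and shapes give the replicate number. The groups stand clear of each other for all genes shown except EPAS1, as for 4044 of the 4292 called genes. Only HIF1A of the genes called has its hypoxia symbols on the left.

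The 12 largest rises among genes that met the conditions for naming included 7 of the genes above, and the remaining 5 were outside those lists. TMEM74B was at 0.241, 0.346 and 0 CPM in normoxia, which is 1, 3 and 0 reads, and at 58.2, 50.6 and 39.8 CPM in hypoxia (5.01 ± 0.29, adjusted p = 1.9e-07). MGARP, a mitochondrial protein linked to the movement of mitochondria along microtubules in hypoxia, rose from 4.57, 2.31 and 1.04 CPM to 108, 115 and 99.8 CPM (4.77 ± 0.38). MT1X, a metallothionein that binds zinc and copper, had no read in normoxia and stood at 19.5, 44.9 and 27.4 CPM in hypoxia, at least 217-fold higher over the group. Metallothionein genes are near copies of each other, so the assignment of these reads to MT1X is uncertain. AIF1L rose by 4.70 ± 0.37 and SNCB (beta-synuclein) by 4.69 ± 0.31, the latter from 0, 0 and 3 reads to 30.7, 36.9 and 32.1 CPM.

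LYVE1 and ANKRD1 were among the 12 largest falls, taken under the same conditions. LYVE1, a hyaluronan receptor of lymphatic vessels and some macrophages, fell by 2.99 ± 0.75 (adjusted p = 0.0082), from 39.0, 54.3 and 88.7 CPM to 0.355, 2.26 and 24.4 CPM. Hypoxia 3 held most of what was left, while both libraries numbered 3 were nearly free of macrophage markers. Without hypoxia 3 the difference was -4.06. ANKRD1, a stretch-responsive muscle gene, fell by 2.62 ± 0.65 (adjusted p = 0.0073) and was uneven in normoxia, at 652, 387 and 120.3 CPM against 24.0, 31.2 and 85.1 CPM.

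A further 9 of the 12 largest falls belonged to several processes. SNRNP25, a protein of the minor spliceosome, was at 46.7, 49.1 and 68.0 CPM in normoxia and 5.15, 3.46 and 5.43 CPM in hypoxia (-2.83 ± 0.24, adjusted p = 5.2e-06). NOL6, which acts in ribosome assembly in the nucleolus, went from 62.1, 50.2 and 59.6 CPM to 3.02, 3.77 and 10.4 CPM (-2.78 ± 0.29). DOLK, the dolichol kinase needed for N-glycosylation, fell by 2.66 ± 0.33, and BPGM, which makes 2,3-bisphosphoglycerate, fell by 2.63 ± 0.32. AAGAB, SNPH and PTGES2 fell by 2.79 ± 0.34, 2.79 ± 0.36 and 2.60 ± 0.37. TAF9B and RFX5, both proteins of transcription, fell by 2.53 ± 0.31 and 2.53 ± 0.21. Groups that do not overlap were a condition for the 12 largest falls, so their separation is no added support for these 9 genes.

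Oxygen is also a substrate of enzymes other than the EGLN hydroxylases. Of 11 tested collagen hydroxylases and crosslinkers, 7 rose and 1 fell, at a median of 1.12, and 5 rose without centring. P4HA1 and P4HA2, the catalytic subunits of collagen prolyl hydroxylase, rose by 2.00 ± 0.22 and 1.48 ± 0.16. P4HA2 was unusually even, at 492, 439 and 437 CPM in normoxia and 1036, 1094 and 1049 CPM in hypoxia. PLOD2, a lysyl hydroxylase of collagen, rose by 2.05 ± 0.20 (adjusted p = 1.2e-05). LOXL1, a crosslinking enzyme of elastin, fell by 1.30 ± 0.13 (adjusted p = 1.9e-05), a call not held without centring (adjusted p = 0.11). The JmjC histone demethylases, which need oxygen too, rose in 10 of 13 cases and fell in none, at a median of 0.86, but 3 were called without centring. KDM3A rose from 49.3, 64.7 and 61.6 CPM to 445, 459 and 414 CPM, a 3.13 ± 0.16 difference (adjusted p = 9.5e-08) with hypoxia libraries almost equal. KDM7A and KDM4B rose by 1.73 ± 0.19 and 1.28 ± 0.14.

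Genes of the mitochondrial machinery that were called mostly fell. Of 25 nuclear-encoded respiratory chain genes, 10 fell and none rose, with a median of -0.19, against 16.0% of all genes that fell. NDUFS1, the largest subunit of complex I, went from 69.3, 71.2 and 77.4 CPM to 23.4, 18.2 and 29.4 CPM without overlap (-1.29 ± 0.16, adjusted p = 7.2e-05). Of 55 mitochondrial ribosomal proteins, 16 fell and 3 rose (median -0.20). MRPS12 fell by 1.92 ± 0.25 and MRPS30 rose by 1.17 ± 0.22. Without centring no respiratory chain gene was called and 3 mitochondrial ribosomal proteins fell. Without hypoxia 3, however, 3 respiratory chain genes rose and 9 fell.

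Cytosolic ribosomal proteins and the proteasome went in opposite directions. Of 31 cytosolic ribosomal protein genes 16 rose and 1 fell, at a median of 0.55. The hypoxia libraries deviated from normoxia by a median of 0.65, 0.70 and 0.36. RPL9 stood at 1088, 1015 and 1450.4 CPM in normoxia and 2004, 1899 and 1550.1 CPM in hypoxia, with hypoxia 3 close to normoxia 3 (0.90 ± 0.17, adjusted p = 0.0015). RPL7A rose by 1.01 ± 0.19. Ribosomal protein genes have many processed copies, so their counts are uncertain. Of 28 proteasome subunits 17 fell and none rose, at a median of -0.60, and each hypoxia library had a median below normoxia (-0.66, -0.81 and -0.51). PSMD2, a subunit of the regulatory particle, went from 346, 361 and 369 CPM to 93.9, 97.3 and 134 CPM, the highest hypoxia library at 38.8% of the lowest normoxia library (-1.45 ± 0.15, adjusted p = 2.2e-05). Without centring no cytosolic ribosomal protein gene was called and 2 proteasome subunits fell.

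In lipid metabolism the pattern was mixed. Of 22 genes for fatty acid uptake and oxidation, 10 rose and 3 fell, with a median of 0.47, and 2 rose and 2 fell without centring. ACADS and HADHB, enzymes of beta-oxidation, rose by 1.40 ± 0.22 and 0.73 ± 0.13, while CPT1A, which admits fatty acids to mitochondria, fell by 1.68 ± 0.38 (adjusted p = 0.0040). CPT1A stood at 57.5, 49.7 and 184 CPM in normoxia, with library 3 far above the others, and at 21.5, 15.1 and 22.6 CPM in hypoxia. Of 22 cholesterol synthesis genes 5 rose and 1 fell. SC5D, a late enzyme that uses oxygen, went from 37.1, 35.9 and 48.3 CPM to 401, 289 and 283 CPM (3.18 ± 0.14, adjusted p = 3.9e-08). HMGCS1 rose by 0.88 ± 0.19, a call not held without centring (adjusted p = 0.17). Leaving out hypoxia 3 gave 4 rises and 4 falls in cholesterol synthesis.

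Calls of mitosis genes depended on hypoxia 3. Of 25 mitosis genes 2 were called higher and none lower, at a median of 0.35. The medians of the hypoxia libraries were 1.06, 0.91 and -1.12 from the normoxia mean, positive in libraries 1 and 2 and negative in library 3. Leaving out hypoxia 3 gave 17 called higher and none lower, and leaving out both libraries numbered 3 gave 21. PLK1, the kinase that drives entry into mitosis, stood at 16.1, 11.9 and 30.9 CPM in normoxia and 55.2, 39.2 and 24.9 CPM in hypoxia. It was called, at 1.20 ± 0.29 (adjusted p = 0.0063), but not without centring (adjusted p = 0.053). Of 24 DNA replication genes 1 rose and 4 fell (median -0.19), and without hypoxia 3 the counts were 2 and 3. RRM2, a subunit of ribonucleotide reductase, rose from 19.3, 13.4 and 26.9 CPM to 87.9, 97.0 and 53.2 CPM (2.12 ± 0.25, adjusted p = 4.8e-05). PCNA, the sliding clamp of the polymerase, fell by 1.28 ± 0.20 (adjusted p = 0.00042), though not without centring (adjusted p = 0.12). Of 19 p53 targets 4 rose and 6 fell, and 1 of them, TIGAR, was called without centring. TIGAR, which restrains glycolysis, went from 42.1, 50.1 and 42.7 CPM to 3.55, 2.56 and 14.5 CPM (-2.38 ± 0.45, adjusted p = 0.0014).

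Of 25 genes of the unfolded protein and integrated stress response, 14 rose and none fell, at a median of 0.81, and 8 rose without centring. The hypoxia libraries differed, with medians of 0.35, 0.75 and 1.45 from normoxia, highest in hypoxia 3. Leaving out hypoxia 3 gave 11 rises and 4 falls. DDIT3 (CHOP), the transcription factor at the end of this pathway, was even in all hypoxia libraries. It went from 107, 121 and 134 CPM to 469.8, 491 and 516 CPM (2.28 ± 0.19, adjusted p = 3.3e-06). PPP1R15A, which restores translation afterwards, rose by 1.68 ± 0.21. Of 14 heat shock protein genes 3 rose and 6 fell. DNAJA1 fell by 1.26 ± 0.13 and HSP90AB1 rose by 0.83 ± 0.18, but neither was called without centring (adjusted p = 0.13 and 0.23).

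Among 15 genes of oxidant defence 5 rose and 3 fell. Leaving out hypoxia 3 gave 5 rises and 8 falls. Besides MT1X, described above, HMOX1, which breaks down haem, was among those that rose. It stood at 14.7, 10.6 and 24.9 CPM in normoxia and 139.9, 166 and 537 CPM in hypoxia, highest by far in hypoxia 3 (3.93 ± 0.42, adjusted p = 2.2e-05). GCLC, the enzyme that limits glutathione synthesis, rose by 1.27 ± 0.21. PRDX1, a peroxiredoxin that removes hydrogen peroxide, went from 438, 450.0 and 591 CPM to 90.9, 105 and 199 CPM (-1.69 ± 0.26, adjusted p = 0.00032). Its fall was smaller in hypoxia 3 than in the others.

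Inflammatory genes rose in part. Of 21 cytokines and NF-kB targets 10 rose and 2 fell, at a median of 1.43, and 11 and 2 were called without centring. TNFAIP3 and NFKB2, which NF-kB induces as feedback, rose by 2.49 ± 0.23 and 2.06 ± 0.20. CCL20, a chemokine for lymphocytes, went from 0.722, 0.115 and 0 CPM, 3, 1 and 0 reads, to 16.0, 25.9 and 17.7 CPM (3.70 ± 0.38, adjusted p = 1.9e-05). CCL2, the monocyte chemokine, fell by 1.73 ± 0.40 (adjusted p = 0.0048), at 241, 162 and 132 CPM against 66.9, 34.2 and 31.7 CPM. Macrophage markers, at 0.0244, 0.0173 and 0.000984% of reads in normoxia and 0.00637, 0.0178 and 0.00134% in hypoxia, had no member of 8 called by limma or by voom in either direction and none at an unadjusted p under 0.05. Without both libraries numbered 3, which hold almost none of these reads, 1 of the 8 was called lower, the scavenger receptor CD163 (-1.80, adjusted p = 0.020), named after its value was seen. The part of these cells in the differences was not tested.

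Of 14 interferon response genes 3 were higher and 3 lower, shares near those of all genes tested (19.5% and 16.0%). MX1, an antiviral GTPase, rose from 5.54, 7.84 and 6.35 CPM to 63.4, 76.2 and 67.4 CPM without overlap (3.24 ± 0.17, adjusted p = 9.5e-08). Of 22 immediate early genes 5 rose and none fell. FOSL2, MYC and JUN rose by 1.89 ± 0.25, 1.26 ± 0.25 and 1.14 ± 0.30, and JUN was not called without centring (adjusted p = 0.065). Of 16 circadian clock genes 9 rose and 1 fell (median 1.12), and 6 rose without centring. CIART, a repressor of the clock, went from 6.02, 7.38 and 8.16 CPM to 43.3, 26.8 and 21.7 CPM (1.96 ± 0.22, adjusted p = 3.4e-05).

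The counts of called genes without hypoxia 3 also differed in further lists, given here as higher and then lower. They became 8 and 2 for angiogenic and vasoactive genes, 10 and 1 for JmjC demethylases and 6 and 15 for mitochondrial ribosomal proteins. Cytosolic ribosomal proteins then had 18 and 1, proteasome subunits 0 and 18 and fatty acid genes 11 and 3. The p53 targets had 4 and 8, cytokines and NF-kB targets 10 and 3, interferon response genes 6 and 2, immediate early genes 7 and 0 and clock genes 11 and 1. All 17 tested genes for glucose use were then higher, while the counts for HIF subunits and sensors, mitophagy, other hypoxia-induced genes, collagen hydroxylases and heat shock proteins stayed the same.

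Where a list had no gene called by limma in 1 direction, at most 2 of its genes had an unadjusted p under 0.05 in that direction and voom called at most 2. Some lists had fewer genes called in either direction than the 35.5% of all genes tested. Among these were cholesterol synthesis (27.3%), DNA replication (20.8%), matrix proteases and inhibitors (25.9%) and cardiac transcription factors (19.0%). For calcium handling the share was 22.2%, for p53 targets 52.6% and for fatty acid genes 59.1%.

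**Figure D4:**
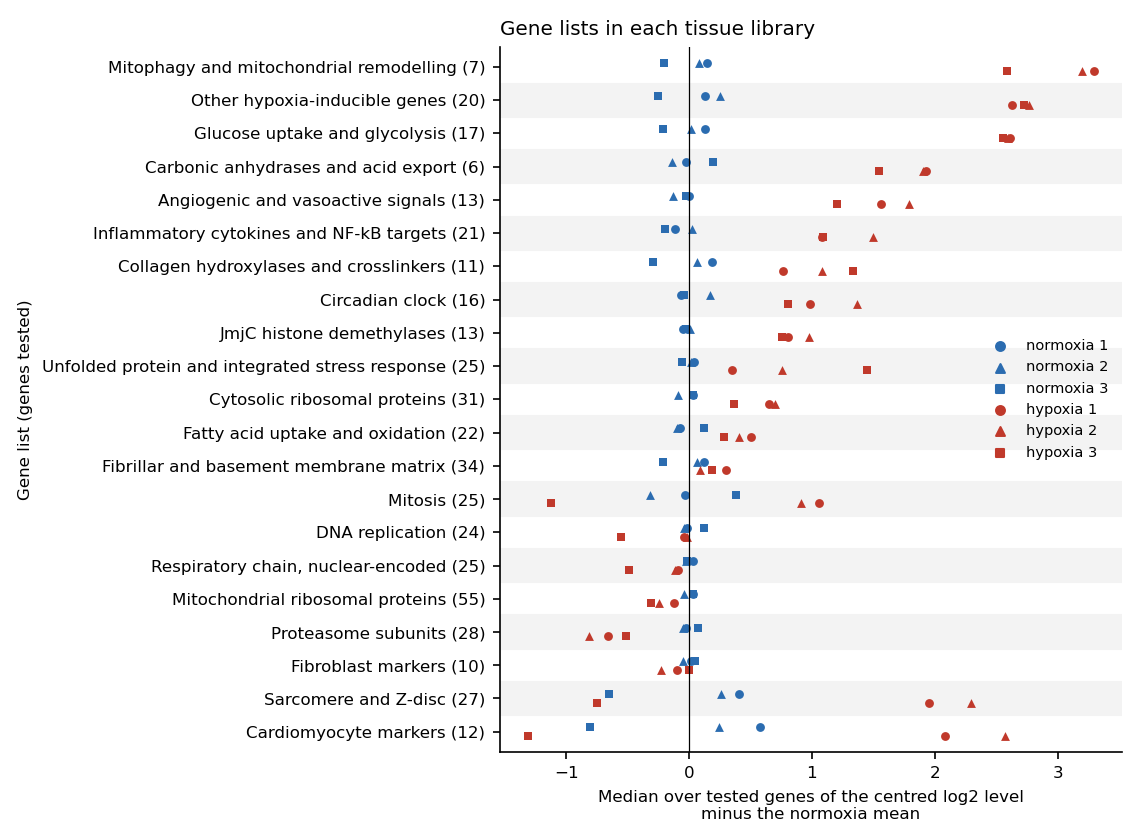
For each of 21 gene lists (genes tested in brackets), the median over its tested genes of the centred log2 level minus the normoxia mean, in each EHT library. Blue symbols are normoxia, red symbols hypoxia, and shapes give the replicate number. Lists of the hypoxia response stand at similar positions in all 3 hypoxia libraries, while mitosis, sarcomere and cardiomyocyte lists lie below 0 in hypoxia 3 and above 0 in hypoxia 1 and 2.

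Of 34 fibrillar and basement membrane genes 8 rose and none fell (23.5% called), at a median of 0.25. Among all genes tested 19.5% rose and 16.0% fell, so the share of rises was near the background. Without centring 3 rose, and without hypoxia 3 the counts were 10 and 2. COL6A3, a chain of collagen VI, went from 2902, 2294 and 4871 CPM to 11208, 11553 and 8766 CPM (1.98 ± 0.24, adjusted p = 7.1e-05). HSPG2 (perlecan), the large proteoglycan of basement membranes, rose by 1.55 ± 0.25 (adjusted p = 0.00050). Of 27 matrix proteases and inhibitors 2 rose and 5 fell, and of 11 genes for IGF binding proteins and ligands 2 rose and 1 fell. Without hypoxia 3 these became 2 and 7, and 4 and 2. Of 23 TGF-beta ligands and targets 3 rose and 6 fell. ID3, a target of BMP signalling, stood at 100.4, 161 and 156 CPM and 21.5, 25.5 and 30.6 CPM and fell by 2.05 ± 0.24 (adjusted p = 5.2e-05). BAMBI, a decoy receptor for the pathway, fell by 2.21 ± 0.35. LTBP2, a microfibril protein, went from 311, 296 and 268 CPM to 107, 107 and 109 CPM, nearly identical within each group (-1.15 ± 0.25, adjusted p = 0.0033), but was not called without centring (adjusted p = 0.19).

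Heart muscle genes gave a different answer with and without hypoxia 3. Of 12 cardiomyocyte markers 2 were called higher and none lower (16.7% called, against 35.5% of all genes tested), at a median of 1.36. Leaving out hypoxia 3 gave 10 higher, leaving out both libraries numbered 3 gave 8, and the uncentred values gave 7, with none lower in each case. TNNT2, cardiac troponin T, stood at 37.3, 18.8 and 1.17 CPM in normoxia and 107, 150.3 and 4.53 CPM in hypoxia. The groups overlapped, hypoxia 3 lay under normoxia 1 and 2, and the gene was not called (1.92 ± 1.14, 95% interval -0.55 to 4.39). Without hypoxia 3 the difference was 3.37 (adjusted p = 0.0081), and without both libraries numbered 3 it was 2.31 (adjusted p = 0.011). MYH6 went from 39.7, 14.5 and 0.129 CPM to 131, 122 and 0 CPM, MYL7, the atrial myosin light chain, from 43.3, 18.8 and 0.129 CPM to 133, 193 and 0.453 CPM, and ACTC1, cardiac actin, from 17.3, 11.6 and 1.04 CPM to 124, 148 and 0.453 CPM. None of these 3 was called with all libraries, with 95% intervals of -2.28 to 4.76, -1.61 to 5.01 and -1.35 to 5.15. Without both libraries numbered 3 their differences were 2.42, 2.54 and 3.21 (adjusted p = 0.0040, 0.0037 and 0.015).

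The markers called were TNNI1, the slow troponin I of fetal heart, and RYR2, the calcium release channel. TNNI1 rose from 4.33, 3.34 and 1.94 CPM to 34.3, 58.6 and 5.21 CPM (2.40 ± 0.64, adjusted p = 0.011) and lost its call without hypoxia 2 (adjusted p = 0.053). RYR2 stood at 0.963, 0.461 and 3.76 CPM and 12.3, 13.4 and 3.17 CPM, highest in normoxia for library 3 and lowest in hypoxia for library 3 (1.76 ± 0.46, adjusted p = 0.010). Neither was called by voom on the recovered reads, which called no cardiomyocyte marker. NKX2-5, a cardiac transcription factor, was under 5 CPM in every library and not called (-0.40 ± 0.59, 95% interval -1.68 to 0.88).

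Among all genes tested 19.5% rose and 16.0% fell, or 24.7% and 19.3% without hypoxia 3. Of 27 sarcomere and Z-disc genes 6 rose and 3 fell (33.3% called, near the 35.5% of all genes), at a median of 1.24. Leaving out hypoxia 3 gave 19 and 2, leaving out both libraries numbered 3 gave 16 and 3, and the uncentred values gave 14 and 1. TCAP, the titin cap, rose by 2.35 ± 0.29 and NEBL, a nebulin relative at the Z-disc, by 1.52 ± 0.23, and hypoxia 3 stood above normoxia for both. NEXN, an actin-binding protein, fell by 1.55 ± 0.33 (adjusted p = 0.0031), at 198, 209 and 196 CPM against 56.8, 31.3 and 93.7 CPM. Among 18 genes for calcium handling 2 rose and 2 fell, and CAMK2D rose by 1.39 ± 0.32 (adjusted p = 0.0052), at 199.9, 161 and 56.4 CPM in hypoxia against 53.7, 49.7 and 61.0 CPM. Of 19 ion channels and connexins none rose and 1 fell, and of 11 natriuretic and stretch-response genes 2 rose and 1 fell. Without hypoxia 3 these became 5 and 3 for calcium handling, 5 and 0 for channels, and 6 and 1 for the stretch response. Of 21 cardiac transcription factors none rose and 4 fell, or 3 and 4 without hypoxia 3. TBX2 fell by 1.70 ± 0.34, and SRF, which drives muscle and cytoskeletal genes, fell by 1.33 ± 0.27 (adjusted p = 0.11 without centring, not called). SRF stood at 73.2, 51.7 and 59.7 CPM and 16.2, 28.8 and 14.7 CPM.

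The share of markers called differed between the other cell types, while 19.5% of all genes tested rose and 16.0% fell. Of 10 fibroblast markers 1 rose and 1 fell, at a median of -0.17. Of 8 smooth muscle markers 1 rose and 3 fell, and their reads went from 0.306, 0.307 and 0.213% to 0.172, 0.188 and 0.136%, lower in each hypoxia library than in any normoxia library. Without hypoxia 3 the counts were 1 and 2. ACTG2, the smooth muscle actin of gut and airway, went from 132, 129 and 78.1 CPM to 21.3, 20.3 and 12.7 CPM (-2.25 ± 0.37, adjusted p = 0.00059). Of 8 epithelial markers 3 rose and 1 fell (6 and 1 without hypoxia 3), with read shares of 0.00132, 0.00121 and 0.000751% in normoxia and 0.00611, 0.00792 and 0.00122% in hypoxia. CLDN4, a tight junction protein, stood at 0.481, 1.27 and 1.55 CPM and 6.75, 13.3 and 2.26 CPM (1.59 ± 0.43, adjusted p = 0.012), with a call lost without normoxia 1 or without hypoxia 2 (adjusted p up to 0.056). Of 5 tested skeletal muscle markers 2 rose, among them TNNT3, fast troponin T, from 1.44, 0.231 and 0 CPM to 33.6, 45.8 and 2.72 CPM (3.33 ± 0.68, adjusted p = 0.0024). Endothelial and epicardial markers had 1 member of 6 higher each and none lower, and both counts were 3 of 6 without hypoxia 3. Neural and endoderm markers had 1 lower each and none higher, and the 1 tested pluripotency marker was not called. Without hypoxia 3, 2 neural markers, 3 skeletal muscle markers and the pluripotency marker were called higher. Whether shifts in these cell types had a part in the other differences was not tested.

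A test of the interaction, the EHT difference minus the monolayer difference, asked whether the hypoxia difference was the same in tissue and in monolayer. It called 1248 genes higher and 1708 lower in EHT (10.3% and 14.1% of those tested). These directions depend on centring, since the uncentred values shift the interaction of every gene by 0.70 and gave 1147 higher and 102 lower calls. Several of the hypoxia genes rose by more in tissue. CA9 rose by 6.68 in EHT and 1.73 in monolayer (interaction 4.95, adjusted p = 0.00036). NDUFA4L2, PGF, C10orf10, RASSF4 and PPFIA4 rose in EHT, while their monolayer differences were 0.20, -0.26, 0.05, 0.10 and 0.30, none of them called. ENO2, ALDOC, EGLN3, SLC2A1, HK2, BNIP3 and ZNF395 rose in both and by more in EHT. In normoxia SLC2A1, HK2 and ALDOC had lower mean CPM in EHT (143, 39.2 and 10.2) than in monolayer (838, 159 and 128). After hypoxia their means were 1776, 676 and 266 CPM in EHT and 2363, 864 and 290 CPM in monolayer. CA9, ENO2, EGLN3 and BNIP3 also started lower in EHT but ended higher there, ENO2 at 1335 against 517 CPM. EGLN1, VEGFA, CA12, PGK1, GYS1, GBE1, ERO1A and KDM3A rose in both without a called difference, with interactions from -0.24 for GBE1 to 0.69 for PGK1, which does not show that they responded alike. RORA and ANGPTL4 rose by less in EHT than in monolayer (interactions -1.72 and -2.28).

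Some genes that fell in EHT rose in monolayer. LTBP2 fell in EHT and rose by 3.72 in monolayer, 1 of the largest interactions of the named genes at -4.87 (adjusted p = 1.9e-05). By list, the interaction was called higher for 15 of 22 cholesterol synthesis genes and 13 of 24 DNA replication genes, and lower for 12 of 19 p53 targets, 17 of 34 matrix genes and 15 of 25 respiratory chain genes. Without centring these counts were 11 and 13 higher and 4, 5 and 0 lower. With centring, 18 cholesterol synthesis and 18 DNA replication genes were called lower in monolayer itself, against 1 and 4 in EHT. Called higher in monolayer were 14 p53 targets, 26 matrix genes and 14 respiratory chain genes, against 4, 8 and 0 in EHT. Of the 12 cardiomyocyte markers 1 interaction was called, lower, that of NKX2-5 (-2.87, adjusted p = 0.025).

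**Figure D5:**
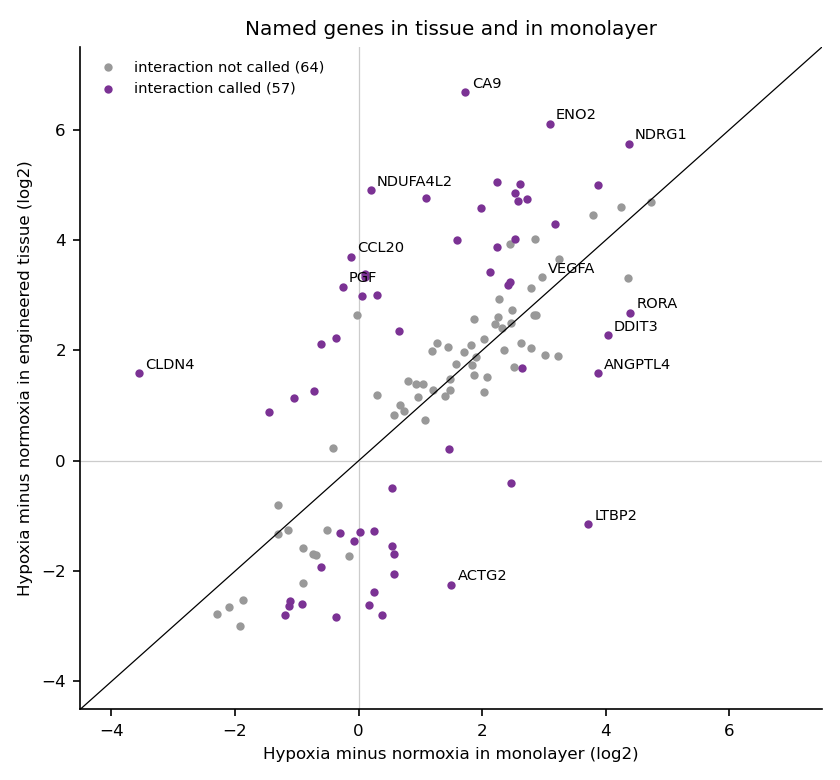
Hypoxia minus normoxia difference (centred log2) in EHT (vertical) against monolayer (horizontal) for the genes named in the text. Purple genes have a called interaction (57), grey genes do not (64), and the diagonal marks equal differences. CA9 (6.68 in EHT, 1.73 in monolayer) lies far above the diagonal and LTBP2 (-1.15, 3.72) far below it.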

How the data were processed

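The deposited table holds variance-stabilised log2 values per gene and library; per the submitters' processing notes reads went through HISAT2, featureCounts and DESeq2, with versions, genome build and annotation not given in the sources used here. Inverting the transformation returned whole reads (tolerance 0.01) for 100% of values in every library, which give CPM. Reads are not independent molecules, so bounds from 0 reads, with a floor of 3 reads over a group, cover counting error only.

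Each library was centred on its median over the genes tested, meaning genes whose 12-library mean exceeded the lowest value of the table by 1 log2 unit or more. One mean per group was fitted to the 12 libraries with limma 3.58.1 (R 4.3.3; moderated variances with a trend), with Benjamini-Hochberg adjustment and a threshold of 0.05. On counts simulated for this comparison over 12084 genes, the fit recovered 49% of 2-fold and 92% of 4-fold changes and called 7 unchanged genes. These figures describe the simulated counts only. Whether they hold for the real libraries, among them the hypoxia library that stood apart, was not tested.

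The comparison, the 44 gene lists and the genes to be named were selected with earlier results of these data known. Named genes were per direction the 12 largest called, non-overlapping differences, up to 3 called members of each list by smallest p, and any member of the hypoxia and cardiomyocyte lists. Counts in a list are out of the members that passed the filter. Alternatives were no centring, quantile normalization, voom on recovered reads, other filters and variance models, array weights, EHT libraries alone, a replicate block and leaving out single EHT libraries. Leaving out both libraries numbered 3 was added after seeing the data. Some of these genes are not reported here. No sequences or positions were used.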

Additional observations from a re-analysis of the deposited data

Results flagged for a closer look

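The hypoxia difference of 57 named genes differed between EHT and monolayer in the test of the interaction, given here as the EHT difference minus the monolayer difference in log2 units. Of the 57, 54 were also called by voom, 56 without both EHT libraries numbered 3, and 34 without centring, which shifts every interaction up by 0.70. All 4 groups held 3 libraries, so no sample was tested as an outlier.

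Among hypoxia response genes the interaction was 4.95 for CA9, 4.71 for NDUFA4L2, 3.42 for PGF, 3.28 for RASSF4, 3.02 for ENO2 and 2.93 for C10orf10. It was 2.82 for EGLN3, 2.71 for PPFIA4, 2.61 for ALDOC, 2.59 for COX4I2, 2.41 for ZNF395 and 2.33 for PFKFB4. Smaller positive values were 1.64 for SLC2A1, 1.48 for BNIP3, 1.38 for NDRG1, 1.31 for INSIG2, 1.13 for HILPDA and 1.12 for HK2. The response was smaller in EHT for ANGPTL4 (-2.28), RORA (-1.72) and PFKM (-1.25), the glycolytic gene that was called in monolayer and not in EHT.

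Of the other large rises, MGARP had an interaction of 3.68, TMEM74B of 2.40, AIF1L of 2.13 and MT1X of 2.01. For genes of the cell cycle, transcription and sterol synthesis it was 2.73 for RRM2, 2.33 for HMGCS1, 2.19 for JUN, 1.99 for MYC and 0.77 for SC5D. CCL20 (3.83) and MX1 (0.78) responded more in EHT, as did TNNT3 (3.23) and TCAP (1.70). CLDN4 had an interaction of 5.15, from a difference of 1.59 in EHT and a larger, opposite difference in monolayer. CLDN4, HMGCS1 and JUN rose in EHT and fell in monolayer, by differences of -3.55, -1.45 and -1.05 there.

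Negative interactions included LTBP2 (-4.87), ACTG2 (-3.75), SNPH (-3.17), NKX2-5 (-2.87), ANKRD1 (-2.78), TIGAR (-2.63) and ID3 (-2.62). They also included SNRNP25 (-2.46), CPT1A (-2.25), NEXN (-2.10), PTGES2 (-1.68), AAGAB (-1.60), PCNA (-1.52), BPGM (-1.50) and TAF9B (-1.42). Subunits of protein and energy metabolism were PSMD2 (-1.38), MRPS12 (-1.32) and NDUFS1 (-1.31), beside LOXL1 (-1.01) and the carrier partner BSG (-1.03). The stress genes DDIT3 (-1.76) and PPP1R15A (-0.96) rose in both cultures and by less in EHT. LTBP2 and ACTG2 fell in EHT and rose in monolayer, by 3.72 and 1.50 there.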

How the results depend on the processing

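Without centring, 858 genes were called higher and 270 lower in EHT, and 102 were called lower in the interaction. Array weights gave 2114 and 2639 interaction calls higher and lower. Leaving out both EHT libraries numbered 3 gave 1927 higher interaction calls, and doing so without centring gave 584 and 395 calls in EHT and 146 lower in the interaction. Leaving out 1 EHT library at a time gave 1865 to 2988 higher and 1398 to 2329 lower calls in EHT, and 939 to 1838 and 1302 to 2238 in the interaction. The replicate numbers paired the samples only in part. Same-numbered libraries correlated at 0.04, 0.33 and 0.27 after group means were removed. The libraries numbered 2 and 3 each correlated best with the library of the same number. Normoxia 1 and hypoxia 1 each correlated best with a library of another number. A fit with the replicate number as a block gave 2304 and 1869 calls in EHT and 1206 and 1617 in the interaction.

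No named gene changed direction under any of these alternatives where it was called. Of 112 named genes called, 95 stayed called without centring, 110 with voom or EHT libraries alone, 111 with quantile normalization and 109 to 112 when 1 library was left out. The block, filters, variance models and array weights kept all 112. Depth limits genes of a few CPM. The scale is relative within each library, so a change in all RNA would not be seen.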

Other observations

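In some genes not named above, the libraries numbered 3 lay on the same side of the other libraries of their group in both oxygen conditions. These genes were picked after seeing how far hypoxia 3 lay from the other hypoxia libraries, and no test was made. COL7A1, the collagen of anchoring fibrils, stood at 205, 184 and 1689 CPM in normoxia libraries 1, 2 and 3 and at 87.9, 111 and 872 CPM in hypoxia libraries 1, 2 and 3. MMP13, a collagenase, stood at 261, 256 and 1139.6 CPM and 73.5, 76.4 and 484 CPM, and SFRP2, a secreted modulator of Wnt signalling, at 1109, 997 and 2399 CPM and 202, 238 and 1357 CPM. In each of these the library numbered 3 was the highest of its group and was lower in hypoxia than in normoxia, as were the libraries numbered 1 and 2.

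Another gene was low in both. NPPA, the atrial natriuretic peptide, had 20.2, 7.96 and 0 CPM in normoxia and 209, 336 and 0 CPM in hypoxia. In libraries 1 and 2 it was higher in hypoxia, as most cardiomyocyte markers were. NKX2-5 and LDB3 were exceptions, lower in hypoxia 1 than in normoxia 1 and 2. In still other genes hypoxia 3 lay far from hypoxia 1 and 2: CRELD2, a protein of the endoplasmic reticulum induced by its stress, stood at 75.3, 71.4 and 84.3 CPM and 20.1, 41.7 and 169 CPM, and NQO1, an enzyme of oxidant defence, at 15.4, 21.2 and 61.9 CPM and 1.78, 7.68 and 49.1 CPM. NQO1 was also highest in library 3 of normoxia. C7, a complement component, stood at 32.5, 43.4 and 34.6 CPM and 113, 112 and 1.36 CPM, low in hypoxia 3 alone.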
